A study of Homo sapiens with 9 samples.

Results

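The BCL2 family decides whether the outer membrane of the mitochondrion stays intact, and 10 of its genes were followed here in OVCAR5 cells, an established epithelial ovarian cancer cell line. The genes were fixed by symbol and matched to the identifiers of the count table through the GENCODE annotation, and all 10 were found among 60649 identifiers. They comprised 3 pro-survival genes (MCL1, BCL2 and BCL2L1), 2 effector genes (BAX and BAK1) and 5 BH3-only genes (BID, BBC3, PMAIP1, BCL2L11 and BIK). All 10 passed the filter on low counts, which left 19674 genes for testing.

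The study asked how METTL3, the catalytic subunit of the enzyme that writes N6-methyladenosine on RNA, shapes gene expression and the response to platinum. The polyadenylated RNA of 9 libraries was sequenced in 3 groups of 3, labelled NC, SM2 and SM4. All 9 are described as coming from cells that carried a lentiviral construct and had survived puromycin. For NC this is at odds with the label of parental cells. NC is labelled as the control, parental cells by the labels, while the study's methods describe a control hairpin, and SM2 and SM4 are labelled as METTL3 knockdown, without saying which hairpin each carried. Whether the 3 libraries of a group came from separate cultures is not stated, so p-values measure the spread between libraries only. The cell line field names OVCAR5 throughout, while another field gives a different OVCAR name to each library labelled SM4.

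METTL3 itself went against the labels, being lowest in the libraries labelled as control and highest in those labelled SM4. It was at 34.4 to 36.6 CPM (counts scaled to a common library size) in the libraries labelled NC, 37.1 to 40.0 CPM in those labelled SM2 and 57.5 to 62.4 CPM in those labelled SM4. Against NC, the edgeR estimate on the log2 scale was 0.12 ± 0.0549 (SE) for SM2, with an adjusted p of 0.12, and 0.75 ± 0.0539 for SM4, with an adjusted p of 2.21e-09. METTL3 shares 388 exonic bases with TOX4 on the other strand (99.8 to 105 CPM on average). The labels of NC and SM4 may therefore have been exchanged, which the labels themselves do not settle. Groups are kept as labelled, and no difference below is to be read as an effect of METTL3 loss. If the labels were exchanged, SM4 would be the control, the knockdown groups would be NC and SM2, and the differences of SM4 from NC and from SM2 would have to be read with the opposite sign. The direct comparison of SM4 with SM2 is therefore given beside those with NC.

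Libraries held 44103272 to 63693728 counts. SM2 replicate 3 stood apart from its group. A chi-square test of its counts against the other SM2 libraries gave 16.1 and 13.4 per degree of freedom, where the other 7 pairs within groups gave 4.16 to 6.01. Epithelial markers summed to 9930 to 10300 CPM in NC, 11300 to 11800 CPM in SM2 and 10900 to 11500 CPM in SM4, with 7 of 7 at or above 1 CPM on average. Of 5 immune, 5 fibroblast and 4 endothelial markers, 1 each reached that level (CD14, COL1A1 and PECAM1), and PTPRC and CD3E had at most 4 counts in any library. The immune list summed to 5.43 to 6.32 CPM in NC, 8.13 to 8.94 in SM2 and 10.0 to 10.6 in SM4, the endothelial list to 5.42 to 5.85, 7.79 to 8.90 and 13.1 to 15.2, and the fibroblast list to 21.3 to 25, 22.6 to 26.5 and 21.7 to 24.6. The part of these marker levels in the results below was not tested.

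As background, pro-survival proteins such as MCL1 and BCL-XL (the product of BCL2L1) hold the effectors BAX and BAK in check. BH3-only proteins sense stress, occupy the groove of the pro-survival proteins or act on the effectors directly, and once BAX and BAK oligomerise, cytochrome c leaves the mitochondrion and caspases are activated. Platinum drugs kill cells largely through this pathway, and ovarian cancer cells often depend on BCL-XL and MCL1 to survive. Much of the regulation is on protein stability and splicing, which counts per gene do not record.

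The short stretch that gives BH3-only proteins their name is shared by all 10 genes and is shown because it is what makes them 1 family. Each line gives 30 bases of the coding sequence of the canonical GENCODE v44 transcript (GRCh38), 5′ to 3′ on the strand of the gene. Capitals mark the leucine codon, the glycine or alanine codon and the aspartate codon of the BH3 core, found by reading the frame for a leucine codon followed, after 3 codons, by a glycine or alanine codon and an aspartate codon. Each coding sequence held 1 such match, and each stretch lies within 1 coding exon.
MCL1, exon 1, minus strand, chr1:150578871-150578900: gagaccTTAcgacgggttGGGGATggcgtg
BCL2, exon 2, minus strand, chr18:63318355-63318384: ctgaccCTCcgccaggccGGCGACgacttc
BCL2L1, exon 2, minus strand, chr20:31721928-31721957: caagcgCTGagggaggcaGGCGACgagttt
BAX, exon 3, plus strand, chr19:48955781-48955810: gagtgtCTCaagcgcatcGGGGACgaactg
BAK1, exon 4, minus strand, chr6:33575393-33575422: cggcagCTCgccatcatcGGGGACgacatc
BID, exon 4, minus strand, chr22:17739421-17739450: aggcacCTCgcccaggtcGGGGACagcatg
BBC3, exon 3, minus strand, chr19:47226585-47226614: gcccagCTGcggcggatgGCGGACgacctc
PMAIP1, exon 2, plus strand, chr18:59902667-59902696: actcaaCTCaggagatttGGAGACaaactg
BCL2L11, exon 3, plus strand, chr2:111150097-111150126: caagagTTGcggcgtattGGAGACgagttt
BIK, exon 3, plus strand, chr22:43127710-43127739: ctgcggCTGgcctgcatcGGGGACgagatg

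The coding stretch of BBC3 carries an alanine codon where the other 9 carry glycine. Among the 45 pairs of genes the stretches shared between 10 (BID and BCL2L11) and 23 (BAK1 and BIK) of 30 bases. No stretch of 50 bases, the read length given in the methods (the labels give longer, paired reads), was shared between protein-coding transcripts of different members. Stretches shared with other genes of the annotation were absent for MCL1, BCL2, BID, BBC3, PMAIP1 and BIK. BAK1 shared 12.5% of its 50-base stretches with the processed pseudogene BAK1P1, which had 83 to 126 counts a library against 1527 to 2282 for BAK1. On the opposite strand BCL2L1 shared 37.8% with the long non-coding gene ABALON (at most 0.0456 CPM) and BCL2L11 shared 10.8% with MIR4435-2HG (21.5 to 26.3 CPM on average in the groups), and no source says if strand was used in counting, so BCL2L11 is the least certain of the 10.

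Per kilobase of the union of annotated exons, BCL2L1 was the most abundant member and BCL2 the least. In the libraries labelled NC the levels were 85.4 ± 2.40 CPM per kilobase for BCL2L1 (SD, n = 3, as for all levels below), 45.1 ± 0.837 for BIK, 37.5 ± 0.897 for MCL1, 31.4 ± 2.38 for BAX and 26.2 ± 0.305 for BID. BAK1 followed at 16.2 ± 0.289 CPM per kilobase, PMAIP1 at 11.5 ± 0.703, BCL2L11 at 5.17 ± 0.230, BBC3 at 1.58 ± 0.227 and BCL2 at 0.0703 ± 0.00727. No 2 neighbours in this order overlapped between the libraries labelled NC. The order rests on the length taken for each gene, here the union of its annotated exons. That union is 12612 bases for BCL2, 951 for BIK, 4197 for BCL2L1 and 2587 for BAX. The median protein-coding transcript is 2444 bases for BCL2L1 and 499 for BAX. By that length BAX would stand above BCL2L1 in NC, and BIK below MCL1 and BID. BCL2 was covered by 22 to 58 counts a library, BBC3 by 234 to 450 and each of the other 8 members by at least 1122, so only for BCL2 and BBC3 does counting error weigh on the values.

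**Figure D1:**
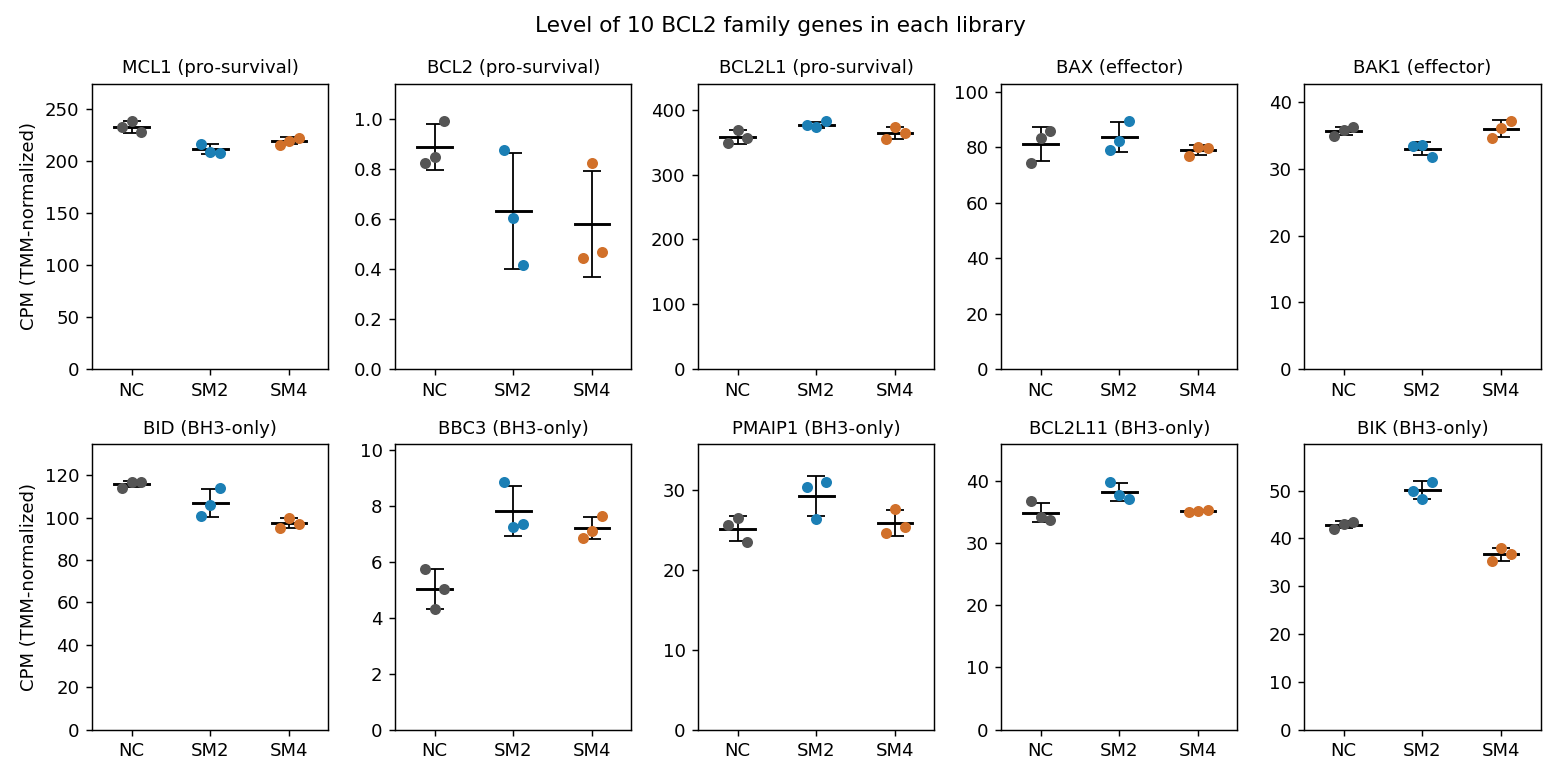
CPM of each of the 10 genes (vertical axis, TMM-normalized, starting at 0) in the 9 libraries, grouped as NC, SM2 and SM4. Points are libraries, bars are the mean and whiskers the SD of 3 libraries. BBC3 lies higher in SM2 and SM4 than in NC, and BIK is highest in SM2 and lowest in SM4.

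SM2 against NC called 4 of the 10 members at an adjusted p below 0.05, 3 higher (BBC3, PMAIP1 and BIK) and 1 lower (MCL1), where 22.3% of all genes tested were called (12% higher and 10.3% lower). SM4 against NC called 3, of which 1 was higher (BBC3) and 2 lower (BID and BIK), against 21.2% of all genes (11% higher and 10.2% lower). SM4 against SM2 called 1, BIK, which was lower, against 12.8% of all genes (6.04% higher and 6.76% lower). The comparisons with NC share the NC libraries. The counts moved by 1.5 times or more without NC replicate 1 in SM2 against NC (2 called, BBC3 and BIK) and without SM2 replicate 1 or 2 in SM4 against SM2 (2 called). Without SM2 replicate 3, the library that stood apart, SM2 against NC called 5 members. The median log2 fold change of the 10 was 0.06, -0.02 and -0.11 in the respective comparisons, and over all genes tested it was 0.00 each time. No called change of a member reached 2-fold, the largest being 0.64 and the smallest 0.14 on the log2 scale.

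Among the pro-survival genes, MCL1 was slightly lower in the libraries labelled SM2, and neither BCL2L1 nor BCL2 was called. MCL1 (ENSG00000143384.14, chromosome 1, 150560895 to 150579738, GRCh38) encodes a short-lived guardian that binds BAK and several BH3-only proteins. Its level was 233, 239 and 228 CPM in NC, 217, 209 and 208 CPM in SM2 and 216, 220 and 222 CPM in SM4. In bulk RNA, fewer expressing cells and less RNA per cell cannot be told apart. All libraries labelled SM2 or SM4 were below every library labelled NC, a separation of groups that 35.2% of all genes showed in SM2 against NC (18% above and 17.2% below) and 38.4% in SM4 against NC (19.1% above and 19.3% below). The log2 fold change was -0.14 (95% interval -0.23 to -0.06, adjusted p 0.014) in SM2 against NC and -0.09 (-0.17 to -0.0039, adjusted p 0.137) in SM4 against NC. The call in SM2 was lost without NC replicate 1 (-0.14, adjusted p 0.0574), NC replicate 2 (-0.13, adjusted p 0.0831) or SM2 replicate 2 (-0.14, adjusted p 0.0636). SM4 and SM2 differed by 0.05 (-0.03 to 0.14, adjusted p 0.441). MCL1 shares 43 exonic bases with ADAMTSL4 on the other strand, a gene at 14.1 to 19.4 CPM on average in the groups.

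BCL2L1 (ENSG00000171552.14, chromosome 20, 31664452 to 31723989), which encodes BCL-XL and a shorter pro-death isoform that counts per gene do not separate, was at 349, 369 and 357 CPM in NC, 377, 373 and 383 CPM in SM2 and 355, 374 and 364 CPM in SM4. The libraries labelled SM2 were above those labelled NC, while SM4 overlapped both. The log2 fold change was 0.08 (95% interval -0.01 to 0.16, adjusted p 0.199) in SM2 against NC and 0.02 (-0.06 to 0.11, adjusted p 0.735) in SM4 against NC. These intervals leave out a change of more than 0.16 on the log2 scale in either direction.

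BCL2 (ENSG00000171791.14, chromosome 18, 63123346 to 63320128), the founding member, was near the detection limit in these cells. It was at 0.821, 0.846 and 0.991 CPM in NC, 0.876, 0.603 and 0.415 CPM in SM2 and 0.444, 0.823 and 0.468 CPM in SM4, and the groups overlapped. The log2 fold change was -0.50 (95% interval -1.17 to 0.17, adjusted p 0.3) in SM2 and -0.61 (-1.27 to 0.05, adjusted p 0.198) in SM4 against NC, so a change was not detectable at this depth.

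The effector genes BAX and BAK1, whose products form the pores in the outer membrane, were called in no comparison. BAX (ENSG00000087088.20, chromosome 19, 48954815 to 48961798) was at 74.3, 83.4 and 86.1 CPM in NC, 79.1, 82.3 and 89.6 CPM in SM2 and 76.9, 80.3 and 79.9 CPM in SM4. All 3 groups overlapped, and the log2 fold changes against NC were 0.04 (95% interval -0.08 to 0.16, adjusted p 0.68) in SM2 and -0.04 (-0.16 to 0.08, adjusted p 0.68) in SM4. BAK1 (ENSG00000030110.13, chromosome 6, 33572547 to 33580293) was at 35.0, 35.9 and 36.3 CPM in NC, 33.4, 33.6 and 31.8 CPM in SM2 and 34.7, 36.1 and 37.2 CPM in SM4. The libraries labelled SM2 were below all others. The log2 fold change was -0.12 (95% interval -0.23 to -0.0043, adjusted p 0.135) in SM2 against NC, 0.01 (-0.10 to 0.12, adjusted p 0.929) in SM4 against NC and 0.13 (0.01 to 0.24, adjusted p 0.139) in SM4 against SM2, each short of the threshold.

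**Figure D2:**
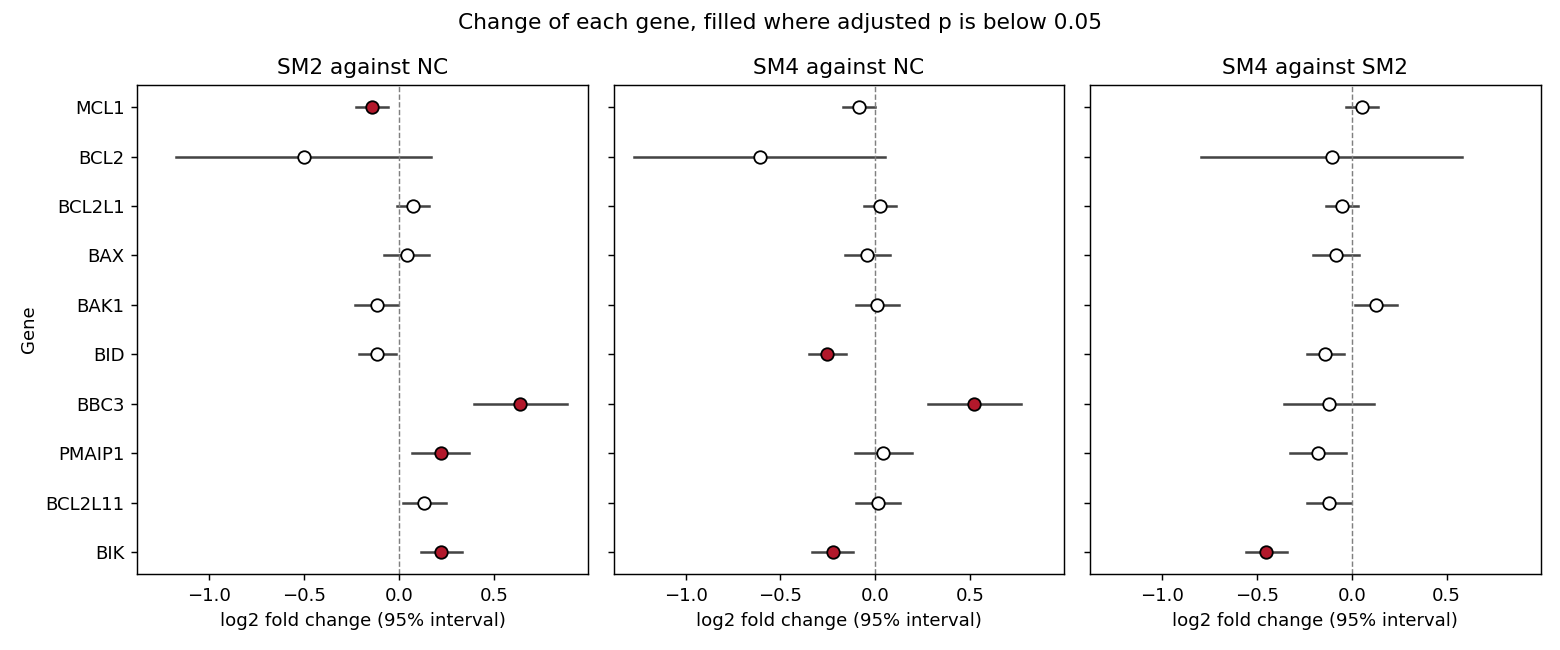
Log2 fold change (horizontal axis) of each of the 10 genes in the 3 comparisons between groups, from the edgeR model of all 9 libraries. Lines are 95% intervals, and circles are filled where the adjusted p was below 0.05. BBC3 lies at 0.64 and 0.52 against NC, BIK at 0.22 and -0.23, and the interval of BCL2 is the widest.

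The BH3-only genes held all called changes of members but that of MCL1, in both directions. BBC3 (ENSG00000105327.18, chromosome 19, 47220822 to 47232766) encodes PUMA, a p53 target that binds all pro-survival proteins. Its level was 5.75, 4.30 and 5.04 CPM in NC, 8.87, 7.24 and 7.36 CPM in SM2 and 6.86, 7.12 and 7.63 CPM in SM4. Every library labelled SM2 or SM4 was above every library labelled NC. BBC3 rose by 0.64 on the log2 scale (SE 0.118, adjusted p 0.000431), a 1.56-fold change, in SM2 and by 0.52 (SE 0.118, adjusted p 0.00265), a 1.44-fold change, in SM4. SM4 and SM2 overlapped and differed by -0.12 (95% interval -0.36 to 0.12, adjusted p 0.572). Over 16 alternative settings the rise stayed called in each comparison with NC, between 0.54 and 0.74 in SM2 and between 0.42 and 0.62 in SM4.

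BIK (ENSG00000100290.3, chromosome 22, 43110750 to 43129712) encodes a BH3-only protein of the endoplasmic reticulum expressed in many epithelial cells. With NC as the reference, BIK moved in opposite directions in SM2 and SM4. With SM4 as the reference, it was higher in both other groups. It was at 42.0, 43.1 and 43.5 CPM in NC, 50, 48.3 and 51.9 CPM in SM2 and 35.2, 38.0 and 36.8 CPM in SM4, and no 2 of the 3 groups overlapped. Relative to NC, BIK rose in SM2 by 0.22 (SE 0.0523, adjusted p 0.00337) and fell in SM4, with a log2 fold change of -0.23 (SE 0.0526, adjusted p 0.00351). The direct difference of SM4 from SM2 was -0.45 (95% interval -0.56 to -0.34, adjusted p 4.22e-06), or 0.732-fold. All 3 calls held in each of the 16 alternative settings, with the direct difference between -0.48 and -0.42. BIK was the only member called between SM4 and SM2, where 12.8% of all genes were called. With BAK1, BID and BCL2L11, it was 1 of 4 members of the 10 without overlap between these groups. Over all genes 28.3% did not overlap (13.7% above and 14.6% below).

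BID (ENSG00000015475.19, chromosome 22, 17734138 to 17774770), whose product is cut by caspase-8 and links death receptors to the mitochondrion, was lower in the libraries labelled SM4. It was at 114, 117 and 117 CPM in NC, 101, 106 and 114 CPM in SM2 and 95.3, 99.9 and 96.8 CPM in SM4. The libraries labelled SM4 were below all others, and SM2 replicate 3 came closest to NC. BID fell in SM4 relative to NC (-0.25, SE 0.0475, adjusted p 5e-04), and SM2 gave -0.11 (95% interval -0.21 to -0.01, adjusted p 0.0955) in SM2 against NC. Without SM2 replicate 3 BID was called in SM2 as well (-0.16, adjusted p 0.007). SM4 against SM2 gave -0.14 (-0.24 to -0.04, adjusted p 0.0616), which passed the threshold without SM2 replicate 1 (-0.18, adjusted p 0.0187), in DESeq2 (adjusted p 0.0344), with a filter on a mean of 1 CPM (adjusted p 0.049) and with the replicate number as a block (adjusted p 0.0422).

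PMAIP1 (ENSG00000141682.12, chromosome 18, 59899996 to 59904305) encodes NOXA, which binds chiefly MCL1. It was at 25.6, 26.5 and 23.5 CPM in NC, 30.4, 26.4 and 31.1 CPM in SM2 and 24.7, 27.7 and 25.4 CPM in SM4. SM2 replicate 2 lay within the range of NC, so the groups overlapped. In SM2, PMAIP1 rose relative to NC by 0.22 (SE 0.0719, adjusted p 0.0321), and the change in SM4 was 0.04 (95% interval -0.11 to 0.19, adjusted p 0.746). The call in SM2 was lost without NC replicate 1 (0.23, adjusted p 0.0679) or 3 (0.17, adjusted p 0.16) or SM2 replicate 1 (0.19, adjusted p 0.0912) or 3 (0.18, adjusted p 0.0811). The direct difference of SM4 from SM2 was -0.18 (-0.33 to -0.03, adjusted p 0.118), and it was called without SM2 replicate 2 (-0.24, adjusted p 0.0388).

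BCL2L11 (ENSG00000153094.24, chromosome 2, 111119378 to 111168444) encodes BIM, a BH3-only protein under control of FOXO factors. It was at 36.7, 34.2 and 33.8 CPM in NC, 39.9, 37.8 and 37.1 CPM in SM2 and 35.0, 35.2 and 35.4 CPM in SM4. The libraries labelled SM2 were above all others, and SM4 lay within the range of NC. The log2 fold change was 0.13 (95% interval 0.02 to 0.25, adjusted p 0.0907) in SM2 and 0.01 (-0.10 to 0.13, adjusted p 0.9) in SM4 against NC, and it was called in SM2 only without SM2 replicate 3 (0.16, adjusted p 0.0424). Since MIR4435-2HG overlaps 727 exonic bases of BCL2L11 on the other strand, the reads of the pair cannot be told apart there if strand was not used.

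Summed per kilobase by class, the BH3-only genes differed most between groups. Their sum was 89.0, 90.3 and 89.5 CPM per kilobase in NC, 98.0, 94.8 and 102 in SM2 and 77.2, 82.7 and 79.9 in SM4. By exon-union length, BIK made up 48% to 53.6% of that sum and had the same order of groups. By the median protein-coding transcript length BID would stand above BIK in NC, so this share rests on the length taken. The pro-survival sum was 123 ± 3.03 CPM per kilobase in NC, 124 ± 1.31 in SM2 and 122 ± 2.60 in SM4, with BCL2L1 at 68.9% to 73.1% of it. The effector sum was 47.6 ± 2.67 in NC, 47.2 ± 1.68 in SM2 and 46.8 ± 1.25 in SM4. The ratio of effector to pro-survival sums was 0.387 ± 0.0194 in NC, 0.381 ± 0.0137 in SM2 and 0.383 ± 0.00575 in SM4, which overlapped. With the median length of protein-coding transcripts the NC sums were 179 for effector and 211 for pro-survival genes. The size of this ratio thus rests on the length taken, and it would be higher by that length. The ratio of BH3-only to pro-survival sums was 0.714 to 0.737 in NC, 0.774 to 0.822 in SM2 and 0.646 to 0.663 in SM4. These sums are descriptions of transcript level without a test, and they say nothing of protein.

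**Figure D3:**
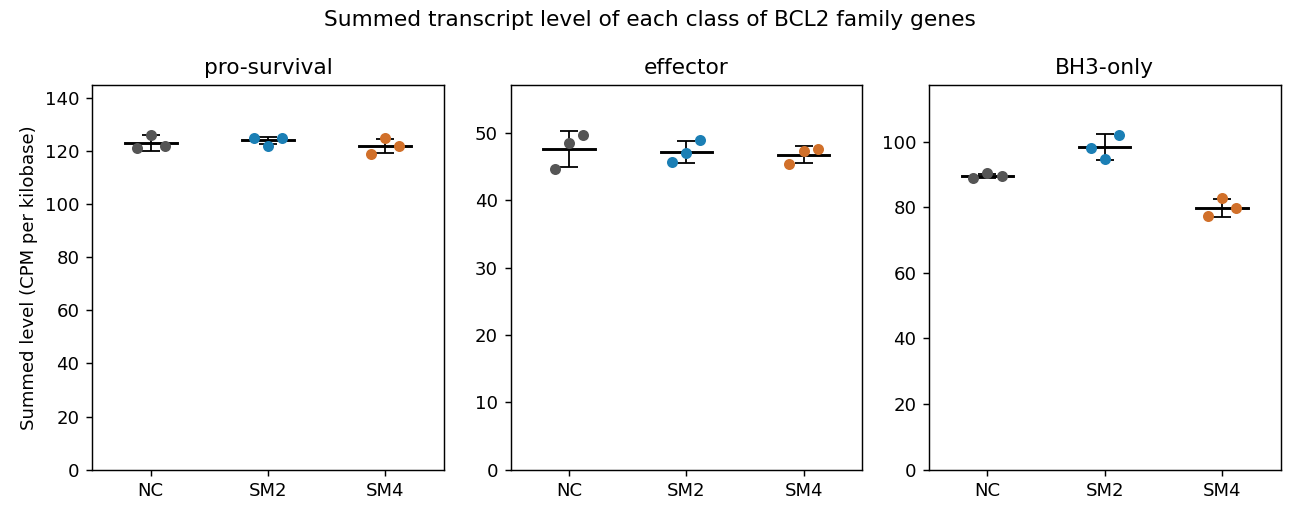
Summed level of each class (vertical axis, CPM per kilobase of exon, starting at 0) in NC, SM2 and SM4. Points are libraries, bars the mean and whiskers the SD of 3 libraries. The pro-survival sums lie between 119 and 126 and the effector sums between 44.6 and 49.7 in all groups, while the BH3-only sums are highest in SM2 and lowest in SM4.

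Of 13 further BCL2 family genes, 3 were called in each comparison (23.1%). Among all genes tested, 22.3% were called for SM2 and 21.2% for SM4, each relative to NC, and 12.8% between SM4 and SM2. The share of this list was thus close to that of all genes relative to NC. It was higher between SM4 and SM2, a difference that was not tested. BCL2L2 (ENSG00000129473.11), the pro-survival gene for BCL-W, was at 91.6, 95.8 and 95.9 CPM in NC, 67.2, 67.7 and 68.6 CPM in SM2 and 78.6, 77.5 and 85.8 CPM in SM4, and no 2 groups overlapped. Relative to NC it fell in SM2 (-0.48, adjusted p 3.73e-07) and less in SM4 (-0.23, adjusted p 0.00143), and the direct difference of SM4 from SM2 was 0.25 (SE 0.0486, adjusted p 0.00131). It shares 315 exonic bases with PPP1R3E on the other strand (12.1 to 12.2 CPM on average) and 815 with the readthrough gene BCL2L2-PABPN1 (at most 0.234 CPM). BCL2A1 (ENSG00000140379.9), a pro-survival target of NF-kB, was at 1.92, 1.95 and 1.30 CPM in NC, 1.27, 1.31 and 1.43 CPM in SM2 and 0.609, 0.649 and 0.507 CPM in SM4. The libraries labelled SM4 were below all others, with a log2 fold change of -1.53 (adjusted p 4.78e-05) against NC and -1.18 (adjusted p 0.00172) against SM2.

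BMF, a BH3-only gene, rose in SM4 against NC (0.59, adjusted p 0.00211, from 3.51 to 5.30 CPM) and had a log2 fold change of 0.30 (adjusted p 0.117) in SM2. BCL2L12, an atypical member, rose in SM2 against NC (0.34, adjusted p 7.06e-05, from 50.9 to 64.3 CPM) and was lower in SM4 than in SM2 (-0.25, adjusted p 0.0024), and it shares 734 exonic bases with IRF3 on the other strand (64.3 to 68.4 CPM on average). BCL2L15, another atypical member, rose in SM2 against NC (0.29, adjusted p 0.0102), a call that was lost without NC replicate 2 (0.25, adjusted p 0.07). The other 8 genes (BCL2L10, BOK, BAD, HRK, BCL2L13, BCL2L14, BNIP3 and BNIP3L) were called in no comparison.

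Downstream of the mitochondrion, 3 of 10 genes of the apoptosome and executioner caspases were called in SM2 against NC, 1 of 10 in SM4 against NC and 1 of 10 in SM4 against SM2. The shares over all genes tested were 22.3%, 21.2% and 12.8% in the same order. CYCS, which encodes cytochrome c, was at 568 CPM in NC, 482 CPM in SM2 and 448 CPM in SM4 and fell in both comparisons with NC (-0.24, adjusted p 0.000741, and -0.34, adjusted p 1.3e-05). AIFM1, a flavoprotein of the intermembrane space, rose in SM2 against NC (0.20, adjusted p 0.00304) and was lower in SM4 than in SM2 (-0.16, adjusted p 0.0277), a call that was lost without NC replicate 1, SM2 replicate 1 or 2, or SM4 replicate 1 or 3 (-0.17 to -0.14). APAF1, CASP9 and CASP6 were called in none.

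The inhibitors of apoptosis proteins were the list with the lowest median in SM4 against NC (-0.27). Of 5 tested genes, 2 fell in SM2 against NC, 3 fell in SM4 against NC and 2 were lower in SM4 than in SM2. Over all genes tested, 10.3%, 10.2% and 6.76% were called lower in the same order. The count in SM4 against SM2 ranged from 1 to 3 over the alternative settings. BIRC3 (cIAP2), an NF-kB target, was at 903, 905 and 836 CPM in NC, 641, 618 and 608 CPM in SM2 and 594, 578 and 571 CPM in SM4. Its log2 fold change was -0.50 (adjusted p 2.03e-08) in SM2 and -0.60 (adjusted p 1.04e-09) in SM4 against NC, with no overlap of SM2 or SM4 with NC. BIRC2 (cIAP1) fell in both as well (-0.26, adjusted p 0.000158, and -0.41, adjusted p 5.48e-07). BIRC5 (survivin), which also acts in mitosis, fell in SM4 (-0.27, adjusted p 9.24e-05), while its change in SM2 was -0.04 (adjusted p 0.525). XIAP and BIRC6 were called in no comparison.

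In the death receptor arm, 4 of 11 tested genes were called in SM2 against NC, 3 of 11 in SM4 against NC and 1 of 11 in SM4 against SM2. These are 36.4%, 27.3% and 9.09% of the list, where 22.3%, 21.2% and 12.8% of all genes tested were called. The 4 became 2 without any 1 of the NC libraries, the 3 became 5 without SM2 replicate 3 or with only the 6 libraries compared, and the 1 became 3 without SM2 replicate 3 and 0 without SM4 replicate 1. TNFSF10, the ligand TRAIL, rose from 7.32, 7.91 and 9.09 CPM in NC to 17, 20.1 and 20.7 CPM in SM2 and 17.8, 16.1 and 17.6 CPM in SM4, a log2 difference of 1.25 for SM2 (adjusted p 4.82e-09) and of 1.08 for SM4 (adjusted p 2.92e-08). One of its receptors, TNFRSF10A, fell in both comparisons (-0.45, adjusted p 6.73e-05, and -0.29, adjusted p 0.00395), and it shares exonic bases with 2 antisense genes at up to 3.54 CPM. TRADD, an adaptor of the TNF receptor, rose in SM2 (0.20, adjusted p 0.0305) and was lower in SM4 than in SM2 (-0.25, adjusted p 0.0116). The TRADD call in SM2 was lost without any 1 of the NC libraries or without SM2 replicate 1 or 3 (0.15 to 0.21), and the call of SM4 against SM2 without SM4 replicate 1 (-0.24, adjusted p 0.0537).

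**Figure D4:**
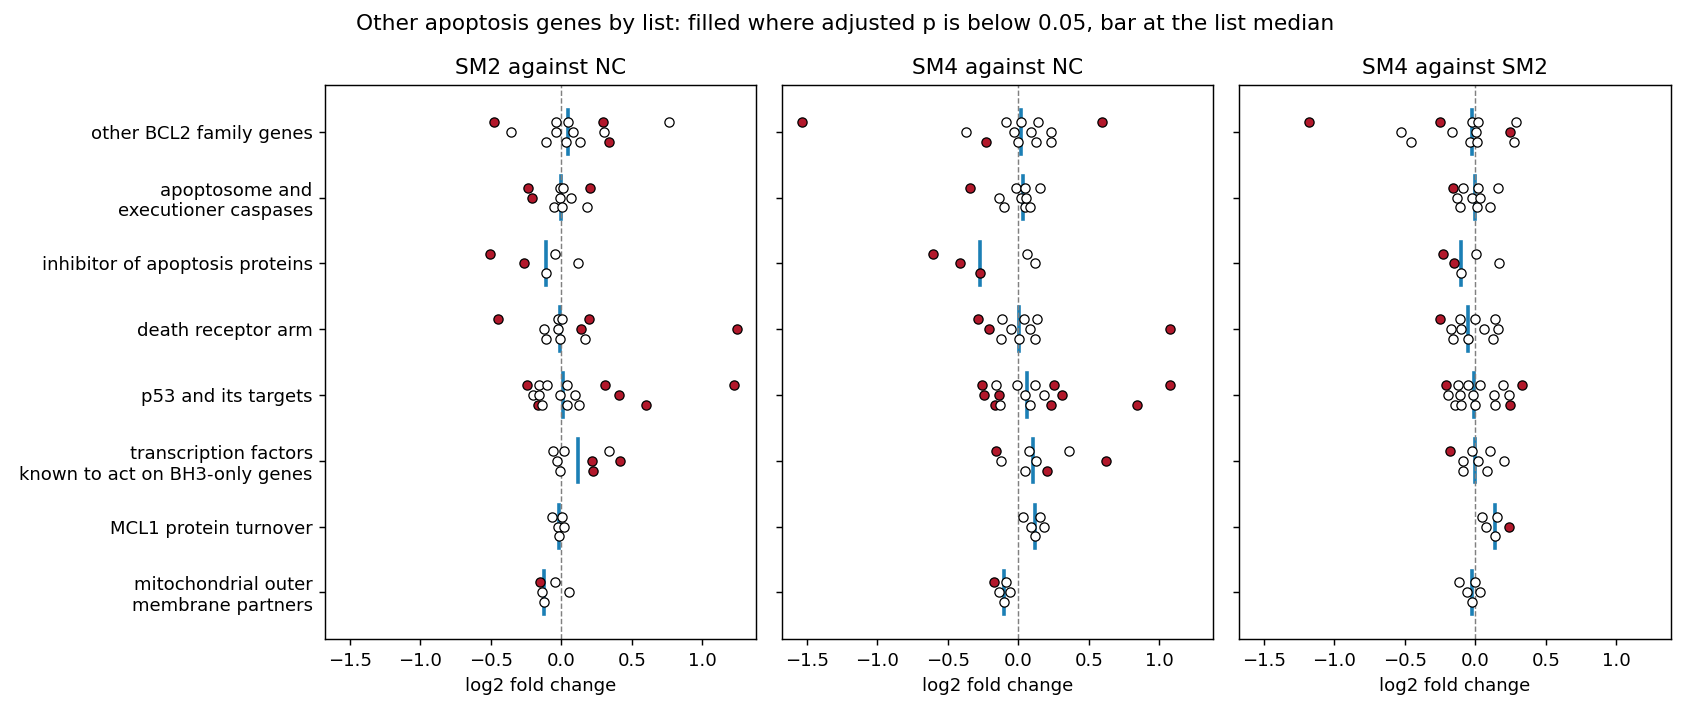
Log2 fold change (horizontal axis) of the genes of 8 further lists in the 3 comparisons between groups. Circles are genes, filled where the adjusted p was below 0.05, and the blue bar is the median of the list. The inhibitors of apoptosis proteins have their median at -0.27 in SM4 against NC, and TNFSF10 and TP53INP1 are the points beyond 1 to the right.

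Of 16 genes of p53 and its targets, 6 were called in SM2 against NC (4 higher and 2 lower), 9 in SM4 against NC (5 higher and 4 lower) and 3 in SM4 against SM2. The respective shares of all genes tested were 22.3%, 21.2% and 12.8%. The 9 became 5 without SM4 replicate 1 or 3, and the 3 became 1 without SM4 replicate 3. TP53INP1, a stress-response gene, rose from 1.42 CPM in NC to 3.29 CPM in SM2 (1.22, adjusted p 4.59e-05) and 2.97 CPM in SM4 (1.08, adjusted p 0.000166), and it shares 225 exonic bases with NDUFAF6 on the other strand (14.9 to 15.8 CPM on average). SESN2, a sestrin also controlled by ATF4, rose in both (0.60, adjusted p 4.88e-06, and 0.84, adjusted p 3.36e-08), as did FDXR, a mitochondrial reductase (0.41, adjusted p 4.09e-05, and 0.31, adjusted p 0.00074).

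Of 8 transcription factors known to act on BH3-only genes, 3 rose in SM2 against NC, and in SM4 against NC 2 rose and 1 fell. Over all genes tested, 12% were called higher in SM2 against NC, and 11% higher and 10.2% lower in SM4 against NC. TP73, a p53 relative, rose in both (0.41, adjusted p 0.00199, and 0.62, adjusted p 2.74e-05), and it shares 633 exonic bases with TP73-AS1 on the other strand (37.2 to 40.6 CPM on average, above TP73 itself at 10.3 to 15.8 CPM), so its value is uncertain. E2F1 rose in both (0.23, adjusted p 0.00278, and 0.21, adjusted p 0.00582), though its call in SM4 was lost without NC replicate 1 (0.16, adjusted p 0.057). ATF4 rose in SM2 (0.22, adjusted p 0.00212), with a change of 0.13 (adjusted p 0.061) in SM4 that was called in 8 of 16 alternative settings. FOXO1 and FOXO3 were called in none. MYC, a growth-promoting factor, was the 1 that fell, and it was named after its direction was seen. In SM4 against NC the 3 called became 5 without SM2 replicate 1 or 3 and 1 without NC replicate 1.

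Genes for the turnover of MCL1 protein held 0 calls of 5 in SM2 and in SM4 against NC by edgeR and by DESeq2, with 0 and 2 at an unadjusted p under 0.05. In these comparisons edgeR called 22.3% and 21.2% of all genes tested. Other edgeR settings called 1 to 3 of the 5 in SM4 against NC, namely 3 without SM2 replicate 3 or with only the 6 libraries compared, 2 with upper-quartile normalization, and 1 with either other filter or with the replicate block. FBXW7, a ubiquitin ligase subunit, was higher in SM4 than in SM2 (0.24, adjusted p 0.0232). That call was lost without SM2 replicate 2 or SM4 replicate 2 or 3 (0.20 to 0.24). Of 5 partners in the outer mitochondrial membrane, VDAC1, a channel of that membrane, fell in SM2 (-0.15, adjusted p 0.0142) and in SM4 (-0.17, adjusted p 0.00479) against NC. Of these 5, 3 were called in SM2 against NC without SM2 replicate 1, and in SM4 against NC 2 without SM2 replicate 3 and 3 with only the 6 libraries compared. The VDAC1 calls were lost without NC replicate 1 or 2 or SM2 replicate 2 in SM2 (-0.15 to -0.13) and without SM4 replicate 1 in SM4 (-0.14).

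For each member, the protein-coding gene with the most similar pattern over the 9 libraries was sought among genes with a mean of at least 5 CPM, by Pearson correlation of log2 CPM. The closest were C16orf74 for BID (r 0.995), PLAU for BIK (0.989), PSMD12 for MCL1 (0.976), DHX37 for BAK1 (0.976), SLBP for PMAIP1 (0.967), MFAP3 for BBC3 (0.965), POLR2L for BAX (0.962), FBXW5 for BCL2L1 (0.961), GAB2 for BCL2L11 (0.961) and EZR for BCL2 (0.945). Each was the best of about 10484 genes over 9 libraries in 3 groups, so these values describe likeness and carry no test. BIK had 162 genes with r over 0.9 and MCL1 259.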

How the data were processed

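Polyadenylated RNA of 9 OVCAR5 libraries was sequenced. The authors deposited raw read counts per gene, and the submitters' processing notes name fastp, HISAT2, featureCounts (Subread) and GRCh38. Versions, annotation and strand setting are not given in the sources used here, and labels and methods differ on the library kit and on single-end or paired reads. Of 60649 identifiers, 60463 matched GENCODE 44. All 37 mitochondrially encoded genes were at 0.

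Counts were filtered with filterByExpr (40975 genes removed), TMM-normalized (factors 0.989 to 1.01) and fitted over all 9 libraries with edgeR 4.0.16 in R 4.3.3. Quasi-likelihood tests of group contrasts were adjusted by Benjamini-Hochberg over 19674 genes, with 0.05 as the threshold for a call. Intervals cover 95% and come from the same test. CPM are TMM-normalized, and levels per length use the union of annotated exons. At 1 CPM a library held 44.1 to 63.7 counts. The script was tested on simulated data. The members and gene lists were chosen with earlier results of these data known. Outside the 10 members and METTL3, genes were named if called in at least 1 comparison (other BCL2 family genes), or if among the 3 with the largest absolute log2 fold change of those called in each other list. Some genes of the lists are not reported here by name. The closest pattern was sought by Pearson correlation among protein-coding genes with a mean of at least 5 CPM. Alternatives were DESeq2 1.42.0, its size factors, upper-quartile normalization, 2 other filters, a replicate block, only the 6 libraries compared, a threshold of 0.01, another length and leaving out each library.

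Replicate numbers did not pair the libraries, since deviations of libraries with the same number correlated at -0.053 to 0.045.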

Additional observations from a re-analysis of the deposited data

Results flagged for a closer look

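SM2 and SM4 carry the same label of METTL3 knockdown, and those named genes for which the direct contrast of SM4 with SM2 passed an adjusted p of 0.05 in edgeR's quasi-likelihood test are given here as log2 differences, SM4 minus SM2. METTL3 differed by 0.63. Among the 10 family members, BIK differed by -0.45. Among other BCL2 family genes, BCL2L2 differed by 0.25, BCL2A1 by -1.18 and BCL2L12 by -0.25. AIFM1 differed by -0.16, BIRC2 by -0.15, BIRC5 by -0.23, TRADD by -0.25, SESN2 by 0.24 and FBXW7 by 0.24. Genes of the lists that were called in this contrast but are outside the rule for named genes are not given. With 3 libraries a group, no single gene's values were tested for an outlying library.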

How the results depend on the processing

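BBC3 against NC in both comparisons, BID in SM4 against NC and BIK in all 3 comparisons stayed called in 16 of 16 alternatives. The members called in SM2 against NC were 4, with 2 to 5 when a library was left out and 2 at an adjusted p below 0.01. In SM4 against NC they were 3, with 3 each time a library was left out. In SM4 against SM2 they were 1, with 1 to 2 when a library was left out, and 2 with a filter on a mean of 1 CPM, in DESeq2 and with a replicate block, BID being the added gene. With the block, 4 and 3 members were called in SM2 and SM4 against NC. BCL2 was not tested under the filter on a mean of 1 CPM.

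With the median length of protein-coding transcripts in place of the exon union, the summed levels in NC, SM2 and SM4 were 211, 213 and 210 CPM per kilobase for pro-survival, 179, 183 and 175 for effector and 154, 164 and 140 for BH3-only genes. Signs changed when a library was left out for uncalled differences: BCL2 (SM4 against SM2, -0.46 to 0.20), BAX (SM2 against NC, -0.0206 to 0.0836, and SM4 against NC, -0.10 to 0.00), BAK1 (SM4 against NC, -0.0151 to 0.0399), PMAIP1 (SM4 against NC, -0.0082 to 0.0823), BCL2L11 (SM4 against NC, -0.0091 to 0.0512), E2F1 (SM4 against SM2, -0.0426 to 0.02) and VDAC1 (SM4 against SM2, -0.0587 to 0.006). The cause was not tested. Of 24 counts of called genes in the other lists, 14 moved by over 1.5 times in at least 1 alternative (48 of 384). BIRC2 and SESN2 in SM4 against SM2 were lost when single libraries were left out, BIRC2 at -0.15 to -0.14 and SESN2 at 0.17 to 0.25. Deviations of libraries with the same number correlated at -0.053 to 0.045, which neither shows a pairing nor excludes a weak one. Of 9 libraries, 5 correlated best with their own number.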
